A study of Mus musculus with 4 samples.

Results

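PRO-seq (precision nuclear run-on sequencing), which reads the RNA being made by engaged polymerases in isolated nuclei, was used here to follow 9 genes that mark bile duct cells (cholangiocytes) or progenitor cells of the liver in WT and *Hdac3* KO mouse livers. The 9 genes are *Sox9*, *Sox4*, *Krt7*, *Krt19*, *Krt23*, *Epcam*, *Prom1*, *Cd24a* and *Spp1*. They were chosen by name and not by a cutoff on a measured value, though with earlier results of these data known. Each symbol was read from its transcript with most promoter-proximal reads on average. All 9 were found among the 20642 gene symbols of the deposited table, and 7 of them were among the 12705 active genes, those that had promoter-proximal reads and, over their gene bodies, more than 4 normalized reads per kb on average. *Krt7* and *Epcam* were not active. At the border of this filter, *Krt19* lay just inside at 4.85 and *Krt7* just outside at 2.93 normalized gene body reads per kb.

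The data are 4 libraries of liver nuclei from mice at postnatal day 14, WT1 and WT2 from Alb-Cre+ Hdac3+/+ mice and KO1 and KO2 from Alb-Cre+ Hdac3 fl/- or fl/fl mice, all C57BL/6. Both genotypes thus carried the Cre transgene, which is driven by the albumin promoter and so acts in cells that express or have expressed albumin. Nuclei of several mice were pooled for each library, so single mice cannot be seen, and p-values rest on the spread between pools. In the limma fits this spread was mostly not a gene's own. For the promoter-proximal region and the pausing index it was the spread shared by genes of like mean value. In the gene body it combined that shared spread with the gene's own. Reads on genes ranged from 16628518 in KO2 to 26190040 in WT2, and promoter-proximal windows took 9.38 and 10.3% of them in WT and 13.6 and 17.0% in KO. *Hdac3* itself had 665, 648, 609 and 582 normalized gene body reads in WT1, WT2, KO1 and KO2 (log2 fold change -0.14, adjusted p = 0.413 from limma). The deletion is thus not visible in these reads, and the genotypes are those of the labels.

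Cholangiocytes line the bile ducts, and like hepatocytes they descend from hepatoblasts, the progenitors of the fetal liver. Around the portal veins, Notch signals from JAG1-bearing cells turn some hepatoblasts toward the bile duct fate, with SOX9 and SOX4 as biliary transcription factors downstream. The ducts that form carry keratins 7 and 19, the adhesion molecule EPCAM, the secreted phosphoprotein osteopontin (*Spp1*) and the surface glycoproteins CD24 and prominin-1 (*Prom1*, CD133), several of which also mark progenitor-like cells of injured livers. None of these genes is exclusive to bile ducts in a whole liver: *Spp1* is also made by macrophages, *Cd24a* by developing B cells and erythroid cells, and *Krt19* by mesothelium.

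The promoters of 6 of the 9 genes (*Prom1*, *Spp1*, *Krt23*, *Sox4*, *Krt7* and *Epcam*) were found in RefSeq (GRCm38.p6). The 250 bases before the annotated start are shown for 4 of them, which stand for the patterns described next: a gene that fell in both measured regions (*Krt23*), a gene that rose at the promoter (*Sox4*), a gene without a called change (*Spp1*) and a gene with almost no reads at its start (*Epcam*). Capitals mark matches to the TATA box motif TATAAA, to the CCAAT box and to the GC box motif GGGCGG. Each was searched on both strands, so some matches read as the reverse complement, and no matches overlap. The windows are chr11:99493121-99493370 on the minus strand for *Krt23*, chr13:28953700-28953949 on the minus strand for *Sox4*, chr5:104434861-104435110 on the plus strand for *Spp1* and chr17:87635729-87635978 on the plus strand for *Epcam*.
Krt23: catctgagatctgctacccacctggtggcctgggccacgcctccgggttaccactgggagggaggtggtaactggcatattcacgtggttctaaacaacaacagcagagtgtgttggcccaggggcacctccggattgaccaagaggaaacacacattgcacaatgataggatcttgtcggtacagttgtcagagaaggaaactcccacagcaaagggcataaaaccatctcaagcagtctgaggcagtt
Sox4: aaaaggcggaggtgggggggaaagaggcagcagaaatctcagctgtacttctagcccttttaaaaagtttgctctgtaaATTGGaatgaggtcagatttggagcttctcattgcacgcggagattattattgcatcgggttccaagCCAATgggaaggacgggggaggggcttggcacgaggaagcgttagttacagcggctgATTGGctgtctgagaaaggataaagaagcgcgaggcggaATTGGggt
Spp1: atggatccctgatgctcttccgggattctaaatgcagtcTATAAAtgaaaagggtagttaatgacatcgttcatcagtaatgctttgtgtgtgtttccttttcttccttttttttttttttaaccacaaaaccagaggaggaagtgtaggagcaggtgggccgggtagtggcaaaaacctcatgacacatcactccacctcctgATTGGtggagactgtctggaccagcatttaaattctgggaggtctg
Epcam: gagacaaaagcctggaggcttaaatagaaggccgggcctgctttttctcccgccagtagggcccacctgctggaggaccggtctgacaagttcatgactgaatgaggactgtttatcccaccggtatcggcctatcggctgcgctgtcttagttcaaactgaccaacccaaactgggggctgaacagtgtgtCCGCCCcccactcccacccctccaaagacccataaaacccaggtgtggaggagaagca

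The *Sox4* window holds 4 CCAAT matches, which begin 171, 104, 47 and 8 bases before the start, and 11 CpG dinucleotides. The gene body counted for *Sox4* spans only 1953 bp, while its RefSeq gene spans 4781 bp. The counted transcript may thus start or end elsewhere than the annotated one. In *Spp1*, 1 CCAAT match begins 46 bases and 1 TATAAA match 211 bases before the start, with 3 CpG dinucleotides. The *Epcam* window holds 1 GGGCGG match, 58 bases before the start, and 8 CpG dinucleotides. None of the 3 motifs is in the *Krt23* window, which has 5 CpG dinucleotides. Over all 32851 RefSeq promoter windows of this length, 12.4% hold TATAAA, 33.8% hold CCAAT and 32.7% hold GGGCGG, and the median CpG number is 6. Such matches describe the letters of these windows and not factors bound there.

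The 9 genes did not move as a group. The promoter-proximal value counts normalized reads in the densest 50 bp window near the TSS, and the gene body value counts those from 1 kb downstream of the TSS to the transcription end. A gene was called at an adjusted p under 0.05 (limma) and an absolute log2 fold change (KO over WT) over 0.6. At the promoter-proximal region, 2 of the 7 active genes rose (*Krt19* and *Sox4*), against 25.8% of all active genes, and 2 fell (*Krt23* and *Sox9*), against 2.20%. The background was 3282 genes up and 280 down, or 634 and 942 after median-of-ratios scaling inside the region, where 1 of the 7 rose (*Krt19*) and 3 fell (*Krt23*, *Sox9* and *Cd24a*). In the gene body, 0 rose, against 10.4%, and 3 fell (*Krt23*, *Sox9* and *Cd24a*), against 11.4%. Rises in the gene body also numbered 0 at an unadjusted p under 0.05 and with edgeR and DESeq2. The pausing index, which divides promoter-proximal by gene body density, was called in none of the 7, against 12.4% of all active genes called up and 0.519% called down. At an unadjusted p under 0.05 it was higher for 1 gene (*Cd24a*), and edgeR and DESeq2 called 0. The medians of the 7 genes were -0.06 at the promoter-proximal region and 0.08 in the gene body on the log2 scale, beside 0.56 and -0.09 over all active genes. As the whole promoter-proximal distribution lay 0.56 above 0, with 84.2% of active genes above 0, changes in that region are also given relative to this median.

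**Figure D1:**
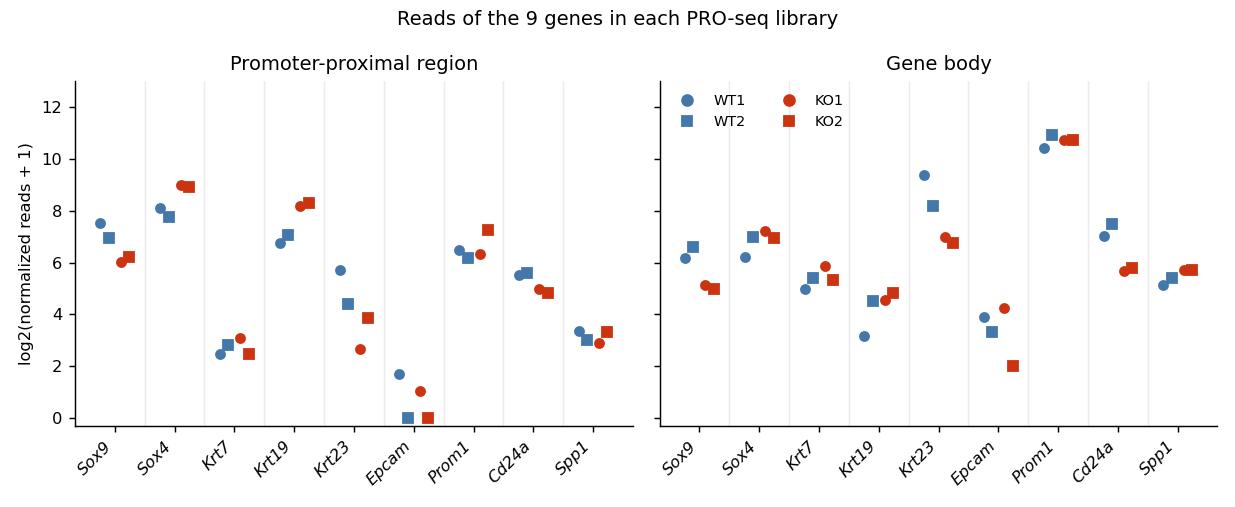
Normalized reads of the 9 genes on the scale log2(reads + 1) in each library, for the promoter-proximal region (left) and the gene body (right). Blue marks WT and red KO, circles replicate 1 and squares replicate 2. The KO points of *Sox9*, *Krt23* and *Cd24a* lie below both WT points in both panels, and those of *Sox4* and *Krt19* lie above them in the left panel.

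Among the transcription factors, *Sox9* and *Sox4* went opposite ways. *Sox9* (chromosome 11, 112782210 to 112787757) encodes the factor that marks the first cells committed to the bile duct fate. In WT1 and WT2 its gene body held 71.1 and 95 normalized reads, and in KO1 and KO2 it held 33.9 and 30.4. Both KO libraries were below both WT libraries, at 0.40 of the WT level (log2 fold change -1.33, standard error 0.28, adjusted p = 4.28e-04 from limma). Its promoter-proximal reads were 184, 123, 64.7 and 72.9 in the same order, again without overlap of the groups (-1.12, standard error 0.35, adjusted p = 0.0095 from limma), and -1.68 relative to the median of active genes. In bulk libraries like these, fewer cells of a type and less transcription per cell cannot be told apart.

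*Sox4* (chromosome 13, 28948919 to 28953699) encodes a related factor that acts with SOX9 in bile duct development. Its start held 278 and 217 normalized promoter-proximal reads in WT1 and WT2, and 509 and 481 in KO1 and KO2. This was a rise of 1.01 on the log2 scale, or 2.01-fold (standard error 0.30, adjusted p = 0.0077 from limma), and 0.45 above the median of active genes. With median-of-ratios scaling within the region, which centres most genes at 0, the change was 0.44 and no longer called (limma, adjusted p = 0.21). Over the gene body, *Sox4* had 72.3, 125, 147 and 121 normalized reads, so KO2 lay between the WT libraries, and the change of 0.49 was not called (95% interval -0.01 to 0.98, adjusted p = 0.112 from limma). It was 0.88 and called without WT2 (adjusted p = 0.0024 from limma), and 0.10 and not called without WT1.

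The keratins, which form the intermediate filaments of epithelial cells, also divided. *Krt23*, a type I keratin gene (chromosome 11, 99477973 to 99493120), fell in both regions. Its gene body carried 670 normalized reads in WT1 and 289 in WT2, against 126 in KO1 and 108 in KO2. Both WT libraries were above both KO libraries, although WT1 was also far above WT2. The gene body fell to 0.27 of the WT level (log2 fold change -1.91, standard error 0.25, adjusted p = 1.33e-06 from limma). The promoter-proximal reads were fewer, 51.6, 20, 5.30 and 13.7, and changed by -1.79 on the log2 scale (adjusted p = 9.10e-04 from limma, standard error 0.44). Without WT1 this change was -1.13 and without KO1 it was -1.18. The gene body change ranged from -1.30 (without WT1) to -2.51 (without WT2) and stayed called.

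*Krt19*, the type I keratin gene most often used to stain bile ducts (chromosome 11, 100140810 to 100145926), rose at its start. The 108 and 133 normalized promoter-proximal reads of WT1 and WT2 compare with 289 in KO1 and 317 in KO2. The groups did not overlap, and the rise of 1.33 on the log2 scale, or 2.51-fold (standard error 0.32, adjusted p = 7.39e-04 from limma), was 0.77 above the median of active genes. It stayed called with median-of-ratios scaling within the region (0.76, adjusted p = 0.028 from limma). Far fewer reads lay in its gene body, with 8.03, 22, 22.3 and 27.3 normalized reads, of which WT1 gave 7 reads. That change was not called (0.83, 95% interval -0.09 to 1.75, adjusted p = 0.146 from limma). Without WT1 it was 0.16, and without WT2 it was 1.51 and called (adjusted p = 0.011 from limma), so at this depth the call in the gene body turned on a single library.

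*Krt19* and *Krt23* lie 647690 bp apart, and none of the 11418 active genes with coordinates lies between them, so the gene that rose and the gene that fell at their starts are next neighbours among those genes. *Krt7*, a type II keratin gene of bile duct epithelium (chromosome 15, 101412403 to 101427806), was left out of the main test by its gene body density of 2.93 normalized reads per kb. Its promoter-proximal windows held 4, 6, 7 and 3 reads in WT1, WT2, KO1 and KO2, and its gene body 31.0, 41, 57.3 and 39.5 normalized reads. The groups overlapped in both regions, and edgeR on the recovered reads of all 20642 genes gave a gene body change of 0.44 (adjusted p = 0.332).

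Of the surface molecules, *Cd24a* fell in the gene body, *Prom1* was not called and *Epcam* was close to the limit of detection. *Cd24a* (chromosome 10, 43579169 to 43584265) encodes a small glycoprotein anchored in the cell membrane. Over its gene body, WT1 and WT2 had 129 and 180 normalized reads, and KO1 and KO2 had 49.9 and 54.7. Both KO libraries were below both WT libraries, at 0.35 of the WT level (log2 fold change -1.52, standard error 0.23, adjusted p = 1.22e-05 from limma). Its promoter-proximal reads, 44.7, 48, 30.8 and 27.3, were also lower in both KO libraries, but the change of -0.66 was not called (95% interval -1.43 to 0.12, adjusted p = 0.182 from limma). Relative to the median of active genes it was -1.22, and scaling within the region (median-of-ratios) gave -1.21, which was called (adjusted p = 0.015 from limma). The pausing index of *Cd24a* was 28.5, 21.9, 50.6 and 41.0, higher in both KO libraries, with a log2 change of 0.87 that was not called (95% interval 0.05 to 1.68, adjusted p = 0.122 from limma).

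*Prom1* (chromosome 5, 43993621 to 44102047), which encodes a pentaspan protein of cell protrusions, is the longest of the 9 genes and had the most gene body reads. After normalization they numbered 1354 and 1912 in WT1 and WT2, and 1712 and 1679 in KO1 and KO2. Both KO libraries lay between the WT libraries, and the log2 change was 0.08 with a 95% interval of -0.20 to 0.35 (adjusted p = 0.687 from limma). At its start, 89.5, 71, 79.6 and 153 normalized reads were found, with KO2 alone above the others (0.47, 95% interval -0.22 to 1.15, adjusted p = 0.287 from limma). Relative to the median of active genes that change was -0.09.

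*Epcam*, a homophilic adhesion molecule of epithelia (chromosome 17, 87635979 to 87651127), had 2, 0, 1 and 0 reads in its promoter-proximal window in WT1, WT2, KO1 and KO2. A count of 0 allows up to 3 reads, which is 3 normalized reads in WT2 and 4.55 in KO2, for counting error only. Its gene body of 14149 bp held 12, 9, 17 and 2 reads. The groups overlapped, and a difference was not detectable at this depth (edgeR over all genes, 0.04 in the gene body, adjusted p = 1).

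*Spp1* (chromosome 5, 104435111 to 104441053) was the only gene for a secreted protein among the 9. Its promoter-proximal window held 9.18, 7, 6.36 and 9.11 normalized reads in WT1, WT2, KO1 and KO2, with overlapping groups (-0.06, 95% interval -1.02 to 0.89, adjusted p = 0.926 from limma). Its gene body had 34.4, 41, 50.9 and 51.6 normalized reads. Both KO libraries were above both WT libraries, yet the change of 0.44 was not called (95% interval -0.15 to 1.03, adjusted p = 0.237 from limma).

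**Figure D2:**
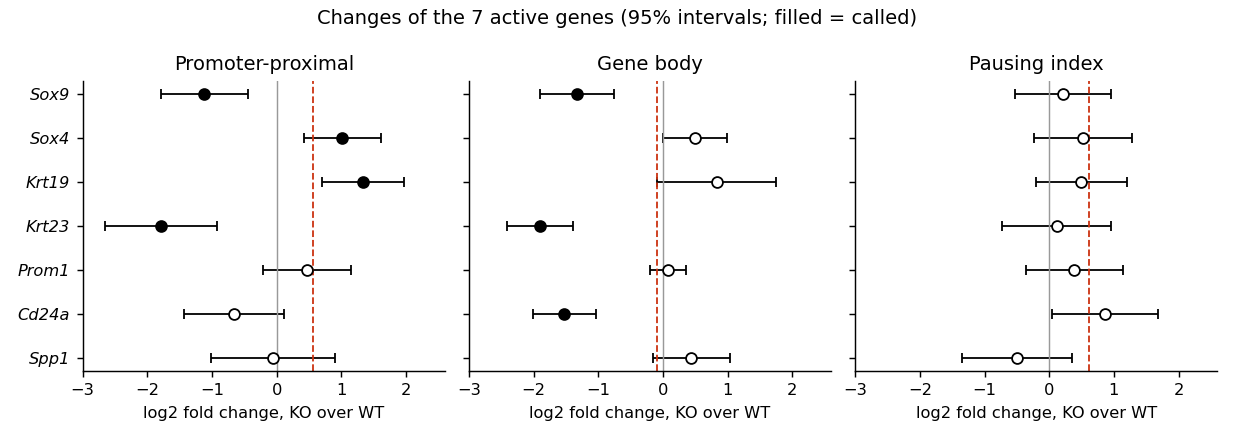
Log2 fold changes (KO over WT) of the 7 active genes with 95% intervals from limma, at the promoter-proximal region, in the gene body and for the pausing index. Filled points were called, the grey line is at 0 and the dashed red line is the median of all active genes. Called changes lie on both sides of 0 in the first panel and below 0 in the second, and no pausing index was called.

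Counted without a test, both KO libraries lay above both WT libraries at the promoter-proximal region in 2 of the 9 genes, against 61.9% of active genes, and below them in 3, against 6.72%. In the gene body they lay above in 2 (*Krt19* and *Spp1*), against 27.6%, and below in 3, against 42.8%. The 3 genes below were *Krt23*, *Sox9* and *Cd24a* in both regions. The 9 genes include *Krt7* and *Epcam*, which were not active and whose groups overlapped in both regions, while the shares cover active genes only. *Sox9* and *Krt23* were called down in both regions, and their pausing index changed by 0.21 (95% interval -0.53 to 0.95) and 0.12 (-0.72 to 0.96) with the deposited scaling and by -0.43 and -0.50 when each region was scaled by its own median-of-ratios. For *Krt19* the pausing index change was 0.50 (-0.20 to 1.20) and for *Sox4* 0.52 (-0.24 to 1.28), and these too turned to -0.15 and -0.13 with that scaling.

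**Figure D3:**
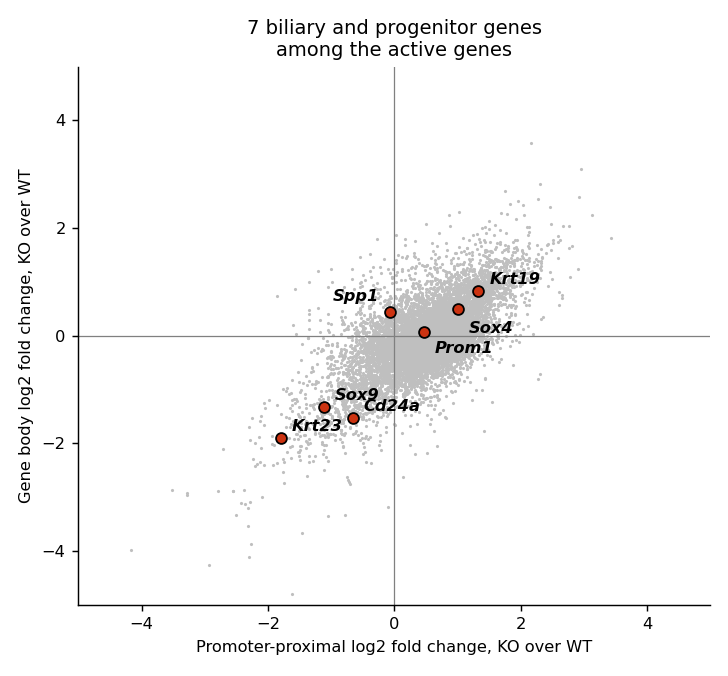
Promoter-proximal (horizontal) against gene body (vertical) log2 fold changes, KO over WT, of all 12705 active genes (grey) and of the 7 active genes described here (red). *Sox9*, *Krt23* and *Cd24a* lie at the lower left, while *Krt19* and *Sox4* lie at the upper right, with *Prom1* and *Spp1* nearer to the origin.

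The 3 falls in the gene body stayed called when any single library was left out, with edgeR and with DESeq2 on recovered reads. With limma over all 20642 genes they were not called (adjusted p = 0.149 for *Krt23*, 0.087 for *Sox9* and 0.074 for *Cd24a*), whereas edgeR over all genes called them. The calls at the promoter-proximal region were less stable. *Krt19* was not called without WT1 (adjusted p = 0.107 from limma) or KO2 (0.054), *Sox4* without WT1, WT2 or KO2 (0.086, 0.272 and 0.067), *Krt23* without WT1, KO1 or KO2 (0.191, 0.120 and 0.052), and *Sox9* without any 1 of the 4 libraries (0.308, 0.101, 0.053 and 0.079 without WT1, WT2, KO1 and KO2).

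Per length, the 9 genes covered a wide range of gene body density. In WT, *Sox4* had 50.5 normalized reads per kb, followed by *Cd24a* at 37.6, *Krt23* at 33.9, *Sox9* at 18.3, *Prom1* at 15.2, *Spp1* at 7.63, *Krt19* at 3.65, *Krt7* at 2.5 and *Epcam* at 0.80 (means of 2 libraries). The WT libraries of each neighbouring pair from *Sox4* down to *Prom1* overlapped, as did those of *Krt19* and *Krt7*, so these neighbours did not differ beyond their spread. In KO, *Sox4* remained first at 68.8 normalized reads per kb, and *Prom1* came second at 15.8, ahead of *Cd24a* at 12.8, *Spp1* at 10.4, *Krt23* at 8.28, *Sox9* at 7.07, *Krt19* at 6.04, *Krt7* at 3.36 and *Epcam* at 0.74. No neighbours overlapped in KO. By density at the promoter-proximal region the order was another one, led by *Sox4*, *Sox9* and *Krt19* in WT and by *Sox4*, *Krt19* and *Prom1* in KO.

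Hepatocyte markers, a check of the tissue label, had 173323 to 363422 summed normalized gene body reads per library over 9 genes. Among genes of mature cholangiocytes, *Cftr*, *Sctr*, *Slc10a2* and *Ggt1* had 0 promoter-proximal reads in all 4 libraries, while *Slc4a2* and *Aqp1* were active. In WT1, WT2, KO1 and KO2 the gene body of *Sctr* held 37.9, 54, 56.2 and 74.4 normalized reads, and that of *Cftr* 17.2, 18, 24.4 and 31.9. *Slc10a2* had 1.06 to 4 and *Ggt1* 1.06 to 4.59, and none of these 4 genes was active. The markers of several other cell types moved with genotype. Over all active genes, both KO libraries lay below both WT libraries in the gene body for 42.8%, and above them for 27.6%. Hepatocyte markers were lower in both KO libraries for 9 of 9 genes in the gene body (summed reads 360604 to 363422 in WT and 173323 to 178695 in KO). Stellate and fibroblast markers were higher for 8 of 8 (9955 to 11322 and 20814 to 22547), endothelial markers for 7 of 7 (55127 to 59602 and 92795 to 104026) and mesothelial markers for 5 of 6 (218 to 252 and 506 to 512, none of the 6 active). Macrophage markers were higher for 5 of 9, with sums of 16354 to 16935 in WT and 17717 to 20797 in KO.

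Some of the other cell types transcribe members of the 9 as well. In the gene body, erythroid markers were lower in both KO libraries for 6 of 6 genes, 4 of them active, against 42.8% of all active genes. Their summed reads were 846 to 1064 in WT and 320 to 391 in KO. B lineage markers were lower for 3 of 6, near that share. The B lineage sums (3685 to 4234 in WT and 1928 to 2080 in KO) were mostly *Pax5*, with 2942 and 3321 reads in WT and 1292 and 1225 in KO, and without it they were 743 and 913 in WT and 788 and 703 in KO. Erythroid markers thus moved in the direction of *Cd24a*, and mesothelial markers in that of *Krt19*. Their part in these results was not tested. Nor was that of the lower hepatocyte markers in the falls of *Krt23*, *Sox9* and *Cd24a*.

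Genes that act on the bile duct fate changed in both directions. Of 12 such regulators, 11 were active. In the gene body 3 rose, 4 fell and 4 were not called, and at the promoter-proximal region 4 rose and 2 fell, with medians of 0.00 and 0.39 on the log2 scale. The shares over all active genes, for this and the next lists, were 10.4% up and 11.4% down in the gene body and 25.8% up and 2.20% down at the promoter-proximal region. On the signal side, *Notch1*, a receptor and the regulator with most gene body reads, rose from 5785 and 6572 normalized reads in WT to 9351 and 9655 in KO (0.62, adjusted p = 6.96e-05 from limma). Without WT1 this change was 0.53, below the threshold. The Notch ligand *Jag1*, named after its values were seen, had 624 and 759 in WT and 1384 and 1333 in KO (0.98, adjusted p = 1.28e-06 from limma). The Notch target *Hey1* had 19.5 and 21 in WT and 45.6 and 38.0 in KO (1.0, adjusted p = 0.019 from limma), but DESeq2 did not call it (adjusted p = 0.114), nor did limma without KO1 or without KO2 (adjusted p = 0.128 and 0.058). Other genes of the pathway, also named after their values were seen, went otherwise. The receptor gene *Notch2* had 8252 and 8047 normalized gene body reads in WT and 6232 and 6222 in KO (-0.39, adjusted p = 0.0052 from limma), short of the fold change threshold. The target *Hes1* had 460.1 and 524 in WT and 525 and 515 in KO (0.08, adjusted p = 0.671 from limma). The libraries mix the cell types of the liver, and endothelial and stellate markers were higher in KO. Which cells the changes of these Notch pathway genes came from was not tested.

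Transcription factors of the liver lineage were among the regulators that fell. *Onecut1* (HNF6), which is needed for normal bile duct formation, had 2696 and 5507 normalized gene body reads in WT and 1080 and 791 in KO (-2.06, adjusted p = 1.96e-08 from limma). *Foxa3*, a forkhead factor of hepatic endoderm, had 2207 and 2612 in WT and 944 and 970.2 in KO (-1.33, adjusted p = 4.80e-09 from limma). *Onecut2*, named after its values were seen, changed by -0.91 (adjusted p = 6.22e-07 from limma). KO and WT did not overlap for any of these genes.

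Among 11 genes of cholangiocyte transport and the primary cilium with a row in the table, 6 were active. Of these, 1 rose in the gene body and none fell, and 2 rose at the promoter-proximal region, counts near those shares. *Pkhd1*, the gene for fibrocystin, was not tested at 3.95 normalized gene body reads per kb, just under the activity cutoff. Named after its values were seen, it had 3065 and 2842 normalized gene body reads in WT and 1556 and 1371 in KO. The riser in the gene body was *Aqp1*, a water channel of bile duct and endothelial cells, with 1484 and 1710 normalized reads in WT and 2868 and 2782 in KO (0.83, adjusted p = 2.65e-06 from limma). *Pkd1*, a polycystin gene with the most gene body reads of this list, had 2043 and 2068 in WT and 2353 and 2528 in KO, which was not called (0.25, adjusted p = 0.078 from limma). *Gpbar1* was not analysed here.

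Of 12 genes of epithelial junctions and the cytoskeleton, 5 were active, and 2 rose in the gene body while none was called at the promoter-proximal region. Those 2 encode the keratin pair of simple epithelia that hepatocytes and cholangiocytes share. *Krt8*, the next active gene with coordinates beyond *Krt7* on chromosome 15 at a distance of 568905 bp, had 317 and 434 normalized gene body reads in WT and 967 and 1107 in KO (1.48, adjusted p = 3.40e-08 from limma). *Krt18* had 208 and 295 in WT and 494 and 551 in KO (1.07, adjusted p = 1.44e-05 from limma). At their promoter-proximal regions the changes were 0.20 and -0.03. *Cdh1*, the gene for E-cadherin and the list's member with most gene body reads, had 2462 and 2111 in WT and 1602 and 1523 in KO (-0.55, adjusted p = 5.08e-04 from limma), short of the fold change threshold.

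Among 12 hepatoblast and progenitor genes, 7 were active. In the gene body 1 rose and 3 fell, and at the promoter-proximal region 2 rose and 1 fell. *Hmga2*, a chromatin protein gene of fetal tissues, had 428 and 526 normalized gene body reads in WT and 963 and 920.1 in KO (0.99, adjusted p = 2.81e-06 from limma). *Lgr5*, a receptor that enhances Wnt signals, had 1466 and 1256 in WT and 702 and 752 in KO (-0.90, adjusted p = 3.00e-06 from limma). *Igf2bp3*, a fetal RNA-binding protein gene, had 5283 and 4461 in WT and 2973 and 2659 in KO (-0.79, adjusted p = 5.84e-06 from limma). *Afp*, the fetal albumin relative, had 948 and 1390 in WT but 722 in KO1 and 115 in KO2 (-1.99, adjusted p = 5.56e-04 from limma), and without KO2 the change was -0.67 and not called (adjusted p = 0.056). DESeq2 did not call *Afp* either (adjusted p = 0.350). *Cd44*, a hyaluronan receptor gene with the most gene body reads of this list, had 5554 and 5468 in WT and 7728 and 6521 in KO (0.37, adjusted p = 0.011 from limma), below the fold change threshold.

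**Figure D4:**
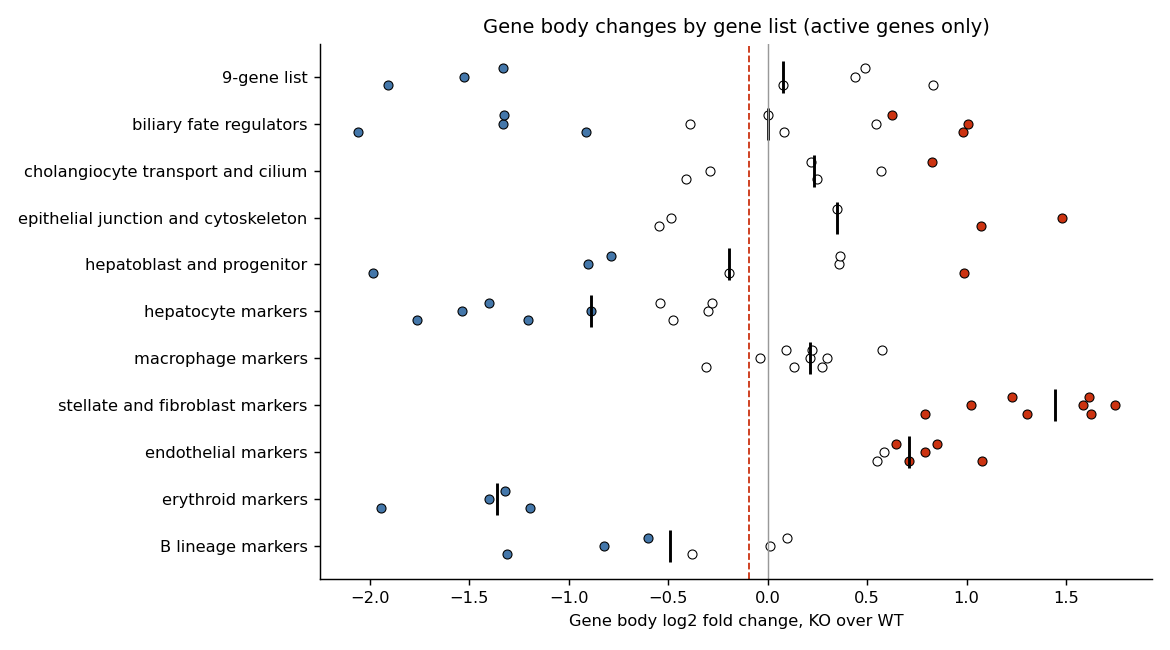
Gene body log2 fold changes (KO over WT) of the active genes in each list. Each point is a gene (red called up, blue called down, white not called), black bars are medians of the list, the grey line is at 0 and the dashed red line is the median of all active genes. Called genes below 0 are found in the 9-gene list, the biliary fate regulators and the hepatoblast and progenitor genes. They are also found among the hepatocyte, erythroid and B lineage markers. The biliary fate regulators hold called genes above 0 as well, and stellate and endothelial markers lie above 0.

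For the active genes other than *Krt19*, the active gene with the most similar pattern was looked up by the Euclidean distance of centred log2 reads over 8 values, 4 libraries in 2 regions. *Sox9* was closest to *Fn1* at a distance of 0.36, *Cd24a* to *Dmgdh* at 0.36 and *Krt23* to *Tdo2* at 0.71. *Sox4* was closest to *Zbtb3* at 0.29. *Spp1* and *Prom1*, which changed little, had the smallest distances, 0.18 to *Atp9a* and 0.16 to *Akap12*. The 8 values share libraries and depth, so these distances describe likeness only.

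The authors called 2282 intergenic enhancers from the pooled reads and assigned them to active genes. Transcripts in RefSeq genes or close to them were excluded before the calling, so enhancers at such places are not in the list. None of the 7 active genes was the closest gene of an enhancer or was listed within 50 kb of one, nor was *Krt7* or *Epcam*. Neither of the latter passed the activity filter used here, yet both appear among the chromatin contacts described below. Measured from the gene's edge, the nearest listed enhancer was 21723 bp from *Epcam*, 160286 bp from *Krt19*, 184849 bp from *Prom1*, 305801 bp from *Krt7*, 424277 bp from *Cd24a*, 740697 bp from *Spp1* and 813092 bp from *Krt23*. It was 2030801 bp from *Sox4* and 2041399 bp from *Sox9*, the genes of transcription factors. Of the 11418 active genes with coordinates, 13.7% had an enhancer within 50 kb, and their median distance was 338987 bp, so the distances of these few genes are given as a description.

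Links of another kind, chromatin contacts collected in 4DGenome, joined 9 enhancers to 6 of the genes (*Epcam*, *Sox4*, *Krt23*, *Krt7*, *Spp1* and *Prom1*). The contacts were recorded in T helper cells (Th1), embryonic stem cells (ESC), neural stem cells (NSC) and Ter119 cells, as the list names them, and not in liver. Only 4 of the 9 enhancers were on the chromosome of the linked gene, 3 for *Epcam*, at chr17:87457945-87475788, chr17:87612784-87614256 and chr17:88255617-88259155, and 1 for *Prom1*, at chr5:43032516-43045141. The link of *Krt23* came from an enhancer on chromosome 1 that was also linked to *Sox4* and *Epcam* and had 1066 linked genes in all, and those of *Spp1* and *Sox4* from an enhancer on chromosome 4 with 960. The deposited list holds no reads per library, so changes of these enhancers were not analysed here.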

How the data were processed

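PRO-seq reads of 4 libraries were, per the authors, trimmed with cutadapt, aligned to mm10 with Bowtie2, freed of ribosomal RNA and of reads with a mapping quality under 10, and counted with NRSA. The values deposited for WT2 are plain read counts (scaling factor 1). Those of WT1, KO1 and KO2 were deposited as normalized signal, which the authors made by multiplying counts by 1.15, 1.06 and 1.52. When divided by these factors, 100% of the 41640 values per library were whole reads (tolerance 0.001). The list of enhancers holds positions and no values per library.

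The 9 genes and all gene lists were chosen with earlier results of these data known. The lists were named by their counts, by the gene with most gene body reads and by up to 4 called genes with the largest gene body change. *Jag1*, *Onecut2*, *Notch2*, *Hes1*, *Pkhd1*, *Slc4a2*, *Pax5* and the genes named for having no promoter-proximal reads fall outside that rule, and some items that it names are not reported here.

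Log2 values of normalized reads plus 1, and log2 pausing indices, were fitted with limma 3.58.1 in R 4.3.3 (KO against WT, trended empirical Bayes, no block), and p-values were adjusted by Benjamini-Hochberg across the 12705 active genes. With 2 libraries against 2, an exact two-sided permutation test cannot give a p under 0.333, so none was used. Same-numbered libraries did not deviate together (r = -0.11 at promoter-proximal regions and 0.02 in gene bodies) and were not treated as pairs. Fold changes are on the log2(reads + 1) scale, which understates changes of genes with few reads. The call thresholds are those of the study. The activity cutoff has the study's value of 4 reads per kb, but on the deposited scale. The study set it after scaling read totals to a fixed number, below the 26190040 reads on genes of WT2, whose factor is 1. The cutoff is thus less strict here than in the study. At a density over 10 per kb, 11176 genes were active, without *Krt19* and *Spp1*. In place of the authors' DESeq2 and stratified test of the pausing index, limma was fitted to the deposited values. As alternatives, recovered reads were tested with DESeq2 1.42.0 and with the quasi-likelihood test of edgeR 4.0.16, and the limma fit was repeated with pseudocounts of 0.1 and 10, other activity filters, scalings and transcripts, a replicate block, and without single libraries. The procedure was tested on simulated counts without a shift of the whole promoter-proximal distribution. That test cannot show how the calls behave under the shift seen here. Tables were handled in Python 3.11.15 with pandas 2.3.3, and gene coordinates and promoters are RefSeq's on GRCm38.p6, the assembly of mm10.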

Additional observations from a re-analysis of the deposited data

How the results depend on the processing

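Results for single genes numbered 39, with 655 alternative values, of which 586 kept their direction and their side of the threshold, 39 lost a call, 6 gained one and 24 changed sign, all among changes that were not called.

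Over the 9 genes, limma without the activity filter called 0 up and 0 down at the promoter-proximal region and 0 down in the gene body, where edgeR without that filter called the same 3 down. With a density over 10 per kb, which drops *Krt19* and *Spp1*, 1 rose at the promoter-proximal region, and median-of-ratios or TMM scaling within each region also left 1. Leaving out 1 library, with the lone library of its genotype assumed to vary like the others, gave 0 to 2 genes up and 0 to 1 down at the promoter-proximal region, and 0 to 2 up in the gene body.

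Over all active genes at the promoter-proximal region, 3282 rose and 280 fell. Scaling within the region gave 634 up and 942 down (median-of-ratios) or 635 and 949 (TMM), the replicate block gave 1772 and 177, DESeq2 called 176 down, and limma without the activity filter called 0 and 0. Leaving out 1 library gave 319 to 3522 up and 83 to 182 down. In gene bodies, 1324 rose and 1449 fell. Without the activity filter limma gave 406 and 589 and edgeR 2001 up, and without the fold change threshold there were 2161 and 2807. For the pausing index, 1574 rose and 66 fell. DESeq2 gave 1012 up and 8 down, edgeR 18 down (10 without the activity filter), a pseudocount of 10 gave 126 down, a density over 10 per kb gave 42 down, and limma without the activity filter gave 0 and 0. Scaling within each region gave 6 up and 11 down (median-of-ratios) or 8 and 13 (TMM), the replicate block 186 and 12, and leaving out 1 library 29 to 5258 up and 6 to 98 down. A crossed pairing (WT1 with KO2), which was added once the data had been seen, made 4109 up and 117 down for the pausing index, with 1 of the 9 genes up (*Cd24a*).

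The pausing index changes of *Krt19*, *Krt23*, *Sox9*, *Sox4* and *Prom1* turned to -0.15, -0.50, -0.43, -0.13 and -0.26 with either scaling within each region, and the promoter-proximal change of *Prom1* to -0.10. That of *Spp1* turned to 0.0083 with gene body scaling in both regions. Leaving out 1 library, the pausing index change ranged from -0.028 to 1.02 for *Krt19*, -0.61 to 0.84 for *Krt23*, -0.28 to 0.70 for *Sox9*, -0.048 to 1.09 for *Sox4* and -0.093 to 0.87 for *Prom1*, the promoter-proximal change from -0.29 to 0.16 for *Spp1* and from -0.0028 to 0.94 for *Prom1*, and the gene body change from -0.17 to 0.32 for *Prom1* and from -0.011 to 0.18 for *Hes1*. The cause of these moves was not tested. Depth limits values that rest on few reads, such as both regions of *Epcam*, *Krt7* and *Spp1*, the gene body of *Krt19* and the promoter-proximal region of *Krt23*, where each library held under 60 reads.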
